A study of Xenopus laevis with 9 samples.

Results

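The nuclear-encoded electron transport chain mRNAs followed here are 9 genes of *Xenopus laevis*, out of 44478 genes in the count table. They were taken by name from the symbols in hand of a source table of the study: mRNAs whose symbol starts with nduf, with cox and a digit, with uqcr, or with sdh and the letter of a succinate dehydrogenase subunit. The copy in hand gives 1999 of the 19752 symbols, 1901 of them mRNAs, so the 9 are the chain mRNAs of that excerpt and not of the whole genome. No succinate dehydrogenase (complex II) subunit was among them. Of the 9, 7 encode structural subunits and 2, cox14.S and cox18.L, encode factors that assemble complex IV.

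RNA was sequenced from undiluted *X. laevis* egg extract before filtration (input, time 0) and from filtrates collected through a polyethersulfone membrane at an early time and low pressure (T1) or at a late time and high pressure (T2). Each condition had 3 libraries, described as biologically independent, and no strain or age of the frogs is given in the labels used here. Time and pressure changed together between T1 and T2 and cannot be told apart. The extract is a lysate of metaphase-arrested eggs, so the libraries hold maternal RNA of a cytoplasm without intact cells, and all 9 egg and oocyte markers examined were present in every input and T2 library, while at T1 piwil2.L was at 0.107 CPM (counts per gene, relative to the library size) in replicate 3, under the level of 3 reads (0.161 CPM). The summed levels of the 9 markers were 1472 to 1742 CPM in the input, 1579 to 2184 CPM at T1 and 1530 to 1690 CPM at T2. Single markers moved both ways at T1 against input. At an edgeR adjusted p-value under 0.05, npm2.L (log2 fold change 2.13) and zp4.L (1.92) were higher and gdf9.L (-1.51) was lower. Among all genes tested, 6.44% were higher and 5.08% lower. In T1 replicate 3, zar1l.S was at 2.36 CPM, against 91.6 to 105 CPM in the input. A pair of epithelial keratins (krt8.1.S and krt18.1.S) had summed levels of 14.7 to 27.0 CPM in the input, 35.2 to 111 CPM at T1 and 36.1 to 47.5 CPM at T2, and their part in the results was not tested.

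The electron transport chain sits in the inner mitochondrial membrane and passes electrons from NADH and succinate to oxygen while pumping protons, which drive the ATP synthase. Complex I (NADH dehydrogenase) takes electrons from NADH, complex III passes them from ubiquinol to cytochrome c, and complex IV (cytochrome c oxidase) reduces oxygen. A few core subunits are encoded in mitochondrial DNA, and all others are encoded in the nucleus, translated from cytoplasmic mRNA and imported. Eggs carry a large maternal store of mitochondria.

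The 9 genes lie on 3 chromosomes of the v10.1 genome, which are the chromosomes that the excerpt mainly covers. On 3L are the complex I subunit genes ndufa9.L (24272162 to 24294458), ndufa2.L (32696328 to 32699348) and ndufa5.L (76828791 to 76837121), the complex III gene uqcrq.S (45325748 to 45331461), and the complex IV genes cox5a.L (99395285 to 99409234) and cox5b.1.L (133200216 to 133207423). On 2S are ndufc2.S (165583409 to 165587204), of complex I, and cox14.S (140508352 to 140511470). On 1L is cox18.L (85651501 to 85665515). The symbol uqcrq.S ends in S although the reference places the gene on 3L. The frog genome is allotetraploid and often keeps an L and an S copy of a gene; the reference lists another copy for cox14 (annotated as a long non-coding RNA), cox5a, cox5b.1 and ndufa5, and reads shared between such copies are left out where only uniquely mapped reads are counted. The gene of cox14.S overlaps the end of the long non-coding RNA gene LOC121400698, so its reads are uncertain to that extent, and no other member overlaps a gene of the reference.

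Reads counted on genes numbered 23509338 to 37265313 in the T1 libraries, against 65503682 to 90000652 in the input and 60330615 to 93451602 at T2. Levels are given as CPM on the scale of edgeR's TMM normalization. They are not divided by transcript length, so they compare 1 gene between libraries and not genes with each other. Fold changes, their standard errors (SE) and adjusted p-values come from edgeR's quasi-likelihood test over all 9 libraries and the 20148 genes that passed a filter on low counts, which all 9 members passed. A gene was called at an adjusted p-value under 0.05. CPM are relative to the reads of a library after TMM scaling, so a higher value in a filtrate is a higher relative level and not a larger amount.

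The first comparison asked which of these mRNAs had a higher or lower relative level in the early filtrate than in the unfiltered extract. At T1, 6 of the 9 were called higher than in the input and 0 were called lower: ndufa9.L and ndufc2.S of complex I, uqcrq.S of complex III, cox5a.L of complex IV, and the assembly factors cox14.S and cox18.L. Among all genes tested, 6.44% were called higher and 5.08% lower. DESeq2's Wald test also called 6 members, all higher. It called 30.7% of the genes to which it gave an adjusted p-value in either direction, 2937 higher and 2693 lower. The 6 called by edgeR were also the members with an unadjusted p-value under 0.05, as 32.4% of all genes had. In the same 6 genes every T1 library was above every input library, which held for 15.7% of all genes tested, and in 0 members was every T1 library below the input, against 27.8% of all genes. The other 3, ndufa2.L, ndufa5.L and cox5b.1.L, were near 0 reads in some T1 libraries and well above the input in others. The fitted log2 fold change was above 0 in all 9 members, as in 48.0% of all genes. Its median was 3.13 over the 9 members and 3.45 over the 7 subunits, against -0.09 over all genes tested and -0.15 over the 1890 named mRNAs tested. The median of 3.13 was the value of cox5b.1.L, which had an SE of 2.37 and was not called.

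ndufa9.L encodes an accessory subunit of complex I in the arm that faces the mitochondrial matrix. Its level was 11.4, 12.6 and 19.2 CPM in the 3 input libraries, 97.6, 135 and 241 CPM at T1, and 31.5, 24.8 and 67.5 CPM at T2. All T1 libraries lay above all others, and all T2 libraries lay above the input. The fitted log2 fold change at T1 against input was 3.45 (SE 0.547, n = 3 against 3, edgeR adjusted p = 0.00516), and it was the only member called under all 18 settings tried, with values of 3.01 to 3.72.

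ndufc2.S encodes a small complex I subunit of the membrane arm. It was at 2.71, 3.21 and 7.27 CPM in the input, 40.1, 39.9 and 83.5 CPM at T1, and 14.5, 36.6 and 38.4 CPM at T2. The 3 conditions did not overlap, although the highest T2 library was close to the lowest at T1. The log2 fold change at T1 was 3.63 (SE 0.763, edgeR adjusted p = 0.0158), and 16 of 18 settings called it.

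uqcrq.S encodes a small subunit of complex III. Its input levels were 14.4, 9.31 and 12.8 CPM, its T1 levels 55.2, 122 and 282 CPM, and its T2 levels 12.5, 43.2 and 61.6 CPM. Every T1 library was above the input, while T2 replicate 1 was within the range of the input and T2 replicate 3 was above T1 replicate 1. The log2 fold change at T1 was 3.65 (SE 0.729, edgeR adjusted p = 0.0127; called in 15 of 18 settings).

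cox5a.L encodes a subunit of complex IV on its matrix side. It was at 12.6, 8.42 and 16.6 CPM in the input, 66.1, 168 and 257 CPM at T1, and 25.3, 53.5 and 15.3 CPM at T2. The T1 libraries were above all others, and T2 replicate 3 fell within the input range. The log2 fold change at T1, 3.71 (SE 0.653, edgeR adjusted p = 0.00741), was the largest of the 9 and was called in 16 of 18 settings.

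The assembly factors had the smallest changes among the members called. The protein of cox14.S takes part, in human cells and yeast, in the synthesis and early assembly of the mitochondrially encoded subunit COX1. It was at 5.03, 6.44 and 8.97 CPM in the input, 25.6, 42.7 and 61.6 CPM at T1, and 8.69, 18.6 and 20.0 CPM at T2. Its T1 libraries stood above all others, with a log2 fold change of 2.67 (SE 0.774, edgeR adjusted p = 0.0497), next to the threshold, and only 6 of 18 settings called it. COX18, in human cells and yeast, inserts part of the mitochondrially encoded subunit COX2 into the inner membrane. The mRNA cox18.L was at 37.4, 37.0 and 48.9 CPM in the input, 96.1, 117 and 351 CPM at T1, and 57.7, 79.7 and 81.6 CPM at T2. The 3 conditions did not overlap, and T1 replicate 3 was far above its other replicates. The log2 fold change at T1 was 2.19 (SE 0.487, edgeR adjusted p = 0.0196; called in 15 of 18 settings).

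**Figure D1:**
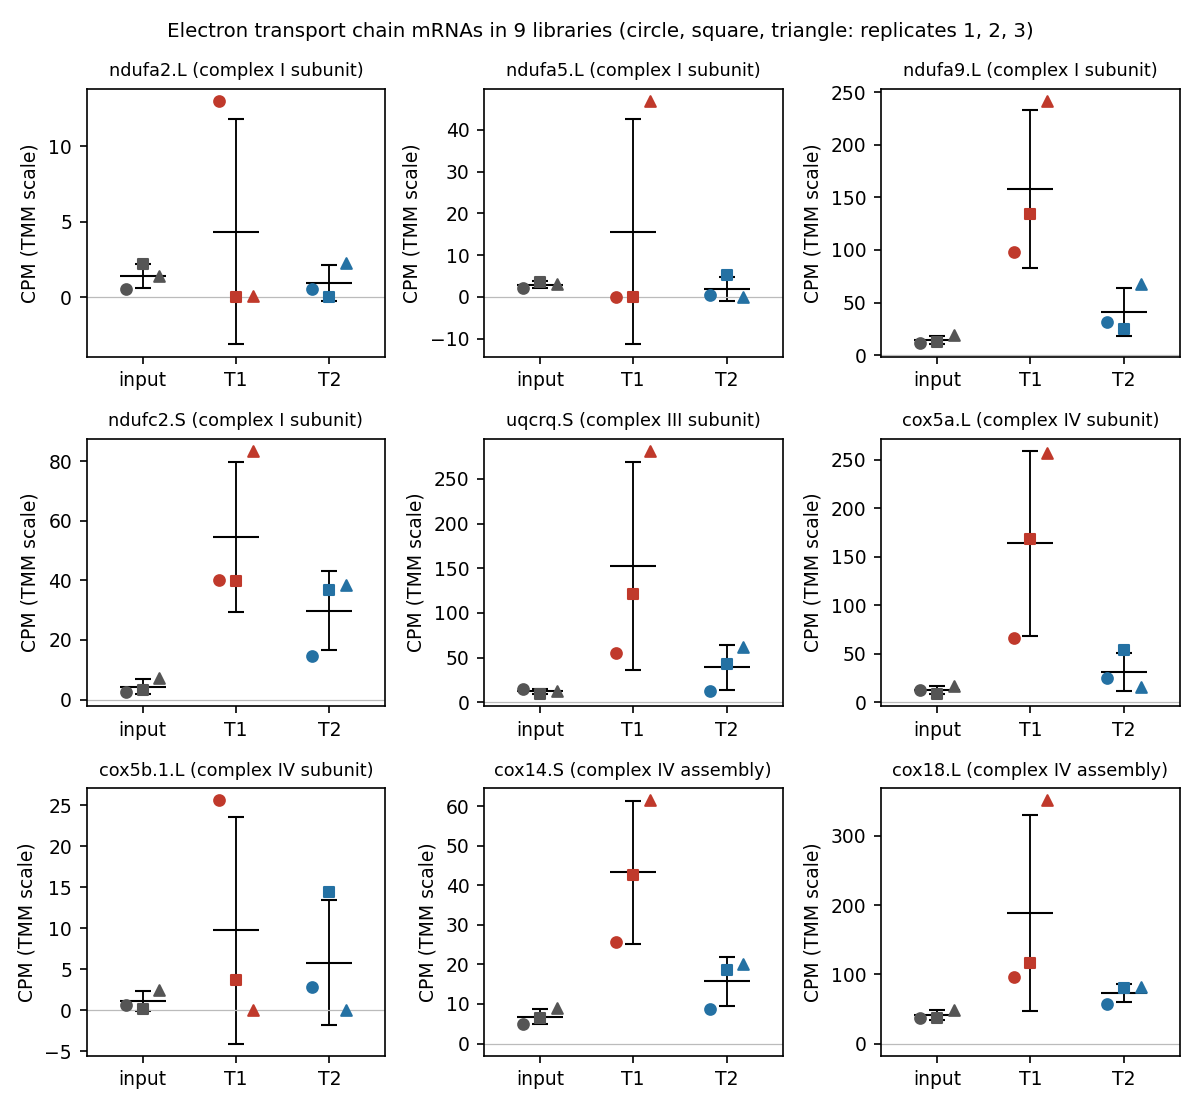
Level of each of the 9 mRNAs in each library, as CPM on the TMM scale on linear axes that differ between panels; circles, squares and triangles are replicates 1, 2 and 3, and the black bar and whiskers are the mean and SD of 3 libraries (whiskers can pass below 0 where 1 library is high and the others are near 0). In 6 panels all T1 points lie above all input points, and in the panels of ndufa2.L and ndufa5.L the T1 points split into high and near 0. In that of cox5b.1.L the T1 points are at 25.6, 3.70 and 0 CPM.

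The other 3 members were present in all input libraries. ndufa2.L, a complex I subunit with a thioredoxin-like fold, had 39, 164 and 135 reads in the input, 471, 0 and 1 at T1, and 53, 1 and 136 at T2. On the CPM scale T1 replicate 1 was at 13.0, above the 0.574 to 2.21 of the input, while the other T1 libraries were at 0 and 0.0536. ndufa5.L, another complex I subunit of the matrix arm, had 138, 271 and 295 reads in the input, 0, 1 and 874 at T1, and 51, 478 and 1 at T2. Here T1 replicate 3 was the high library, at 46.9 CPM against 2.03 to 3.66 in the input. cox5b.1.L, a complex IV subunit that binds zinc, had 46, 13 and 234 reads in the input, 929, 130 and 0 at T1, and 284, 1337 and 3 at T2. In T1 replicate 1 it was at 25.6 CPM and in T1 replicate 2 at 3.70 CPM, above the 0.175 to 2.49 CPM of the input, and in T1 replicate 3 it had 0 reads, where 3 reads would have been about 0.161 CPM.

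The library with the high value was therefore replicate 1 for ndufa2.L and cox5b.1.L and replicate 3 for ndufa5.L. Which T1 libraries were near 0 reads differed between these genes as well. The fitted log2 fold changes of ndufa2.L, ndufa5.L and cox5b.1.L at T1 were 1.63 (SE 2.45), 2.41 (SE 2.56) and 3.13 (SE 2.37). Their edgeR adjusted p-values were 0.706, 0.576 and 0.407, so none was called. The SE was larger than the value for ndufa2.L and ndufa5.L, and smaller than it for cox5b.1.L. The fold changes rested on single libraries: without T1 replicate 1 the value of ndufa2.L was -5.73, and without T1 replicate 3 that of ndufa5.L was -7.53. For cox5b.1.L the value was 0.69 without T1 replicate 1.

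Having at most 3 reads in 1 T1 library and at least 100 in another was common outside the chain. It held for 3 of the 9 members and for 24.5% of all genes tested, and its share changed with the level in the input. It was 26.2% of the 2206 genes with a mean input level of up to 1 CPM, 44.7% of the 3872 genes at 1 to 5 CPM and 43.9% of the 4946 genes at 5 to 20 CPM, but 6.99% of those at 20 to 100 CPM and 0% above 100 CPM. All 3 such members were in the class of 1 to 5 CPM, with input means of 1.41 CPM (SD 0.820, n = 3) for ndufa2.L, 2.94 CPM (SD 0.831) for ndufa5.L and 1.11 CPM (SD 1.22) for cox5b.1.L. The other member in that class, ndufc2.S at 4.40 CPM (SD 2.50), had at least 1400 reads in every T1 library. The 4 members at 5 to 20 CPM, cox14.S, cox5a.L, ndufa9.L and uqcrq.S, had at least 928 reads in every T1 library. At T2 the same 3 members, and no other, met the criterion, against 16.0% of all genes tested, and in the input 3.24% of genes did.

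**Figure D2:**
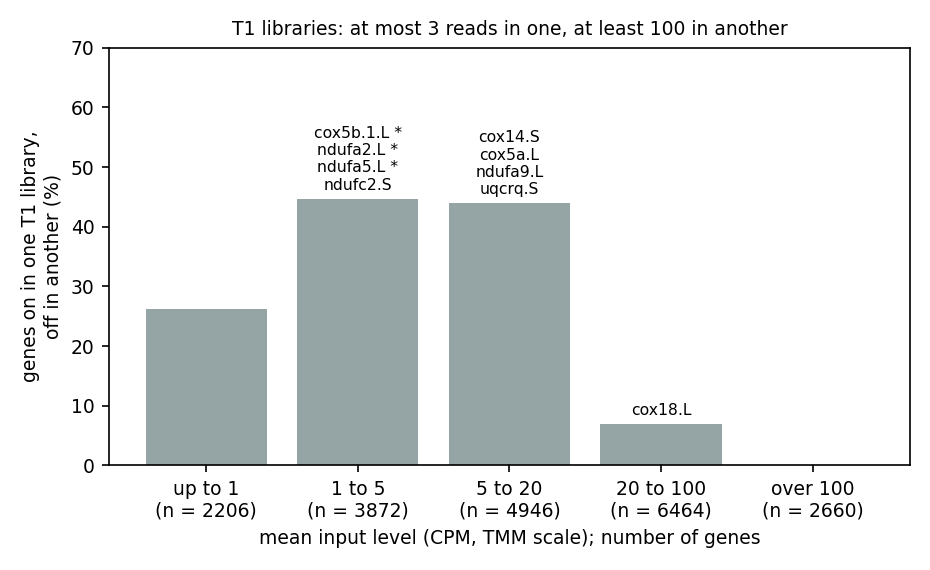
Percent of genes with at most 3 reads in 1 T1 library and at least 100 in another (bars, from 0), by class of mean input level in CPM on the TMM scale; the members of each class are written above its bar, with an asterisk on those that met the criterion. The share is 44.7% at 1 to 5 CPM, where the 3 marked members lie, and 6.99% at 20 to 100 CPM, where cox18.L lies.

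Each of the 6 members called at T1 was also compared with the other members across libraries. Over the 9 libraries, the correlation of the log level of each with the mean of the other 8 members was between 0.88 and 0.95, whereas it was -0.17 for ndufa2.L, 0.11 for ndufa5.L and 0.11 for cox5b.1.L. These correlations describe libraries of 3 conditions, which share depth and scaling, and carry no test. The 6 were called from these same libraries, so their higher values follow in part from that choice. Within T1 the replicates were ordered alike in 5 of the 6: replicate 3 was the highest and replicate 1 the lowest, and in ndufc2.S replicate 3 was the highest and the others were level. With 1 CPM added to both values, the median log2 ratio of the 9 members to the mean of the input was 2.31 in T1 replicate 1, 2.48 in replicate 2 and 3.60 in replicate 3 (mean 2.80, SD 0.702, n = 3). T1 replicate 3 was also the shallowest library, with 23509338 reads on genes, and the part of depth in this order was not tested. Across the T1 libraries the median coefficient of variation of the members was 0.753, against 0.293 in the input, and over all genes it was 0.878 at T1 and 0.230 in the input. At T2 it was 0.632 for the members and 0.442 over all genes.

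The calls at T1 of the members other than ndufa9.L depended in part on which libraries entered the fit. All 6 remained without T1 replicate 1, where calls over all genes rose to 4083 of 21668 tested. Without input replicate 1 or without input replicate 2 ndufa9.L was the only member called, and without input replicate 3 there were 3. Calls over all genes fell in these settings without an input library. They were 420 of 20992 genes tested without input replicate 1, 417 of 20917 without replicate 2 and 590 of 20984 without replicate 3. In the main fit they were 2320 of 20148. The log2 fold changes of the 6 kept their direction under every setting, with the lowest value, 1.38, for cox18.L without T1 replicate 3. Without the same library the value of uqcrq.S was 2.86.

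The second comparison asked whether these mRNAs still differed from the unfiltered extract in the late filtrate. At T2, 0 of the 9 were called, as were 0% of all genes tested by edgeR. At an unadjusted p-value under 0.05 there were 4 members (ndufa9.L, ndufc2.S, uqcrq.S and cox5a.L) against 7.79% of all genes. DESeq2's Wald test called ndufc2.S higher (adjusted p = 0.0056). It called 251 genes, 143 higher and 108 lower, or 2.66% of those to which it gave an adjusted p-value. The fitted log2 fold changes were above 0 in 7 of the 9, as in 57.1% of all genes, with a median of 1.32 against 0.14 over all genes. Both comparisons use the same 3 input libraries, so their values are not independent of each other.

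By role, ndufc2.S had the highest value at T2, 2.76 (SE 0.735, edgeR adjusted p = 0.312), and ndufa9.L was at 1.52 (SE 0.508). uqcrq.S was at 1.68 (SE 0.675), cox5a.L at 1.32 (SE 0.596), cox14.S at 1.21 (SE 0.738) and cox18.L at 0.83 (SE 0.469). In ndufa9.L, ndufc2.S and cox18.L all T2 libraries were above all input libraries, 3 of 9 members against 14.1% of all genes tested. The values of ndufa2.L, -0.59 (SE 2.40), ndufa5.L, -0.63 (SE 2.44), and cox5b.1.L, 2.37 (SE 2.30), had errors about as large as the values or larger. The median log2 ratio to the input with 1 CPM added was 0.480, 1.32 and 0.973 in T2 replicates 1, 2 and 3 (mean 0.926, SD 0.424), below that of every T1 library.

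**Figure D3:**
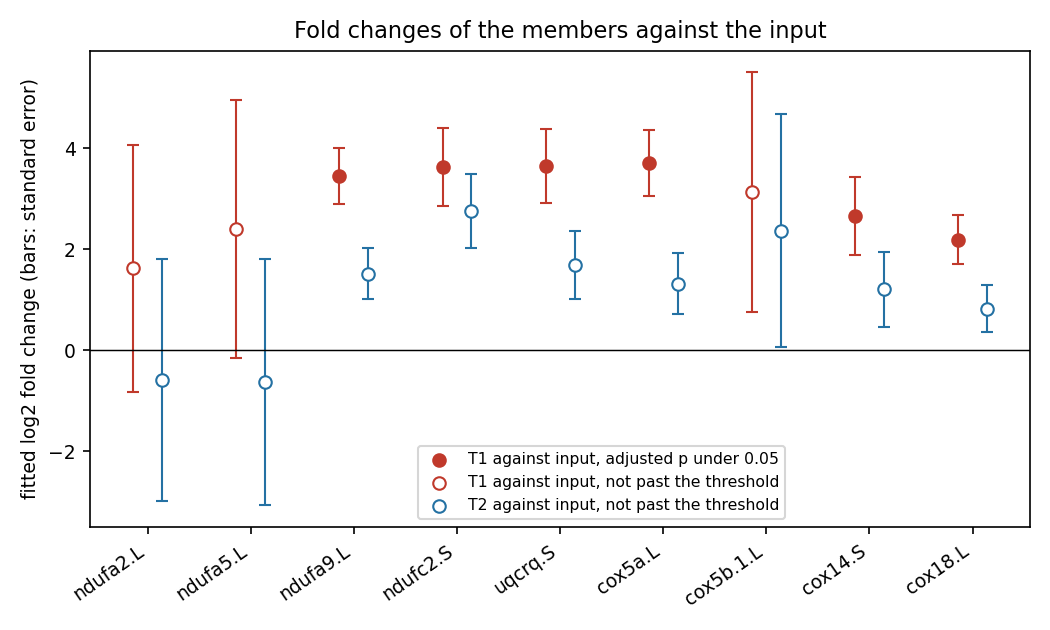
Fitted log2 fold change of each member against the input (vertical axis, bars: SE, 3 libraries against 3) at T1 in red and at T2 in blue; filled points have an edgeR adjusted p-value under 0.05 over all genes. For each member the T1 point lies above the T2 point, 6 of the T1 points are filled and no T2 point is, and the bars of ndufa2.L, ndufa5.L and cox5b.1.L are the longest.

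The third comparison set the late filtrate directly against the early one. At T2 against T1, 0 of the 9 members passed the threshold, while 0.00993% of all genes were called lower and 0.0893% higher. At an unadjusted p-value under 0.05 there were 4 members, cox5a.L, ndufa9.L, uqcrq.S and cox18.L, against 22.7% of all genes. All 9 fitted values were below 0, as were those of 9386 of the 20148 genes tested. The members' median was -1.94 against 0.09 over all genes. The T1 libraries here are those from which members were called higher than the input, so these values are not independent of those calls. In 5 members, ndufa9.L, ndufc2.S, cox5a.L, cox14.S and cox18.L, every T2 library was below every T1 library, which held for 7.73% of all genes tested.

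The lowest adjusted p-values in that comparison were those of cox5a.L, with a log2 fold change of -2.38 (SE 0.616, edgeR adjusted p = 0.0905), and of ndufa9.L, with -1.94 (SE 0.514, edgeR adjusted p = 0.0934). For uqcrq.S the value was -1.97 (SE 0.681) and for cox18.L -1.37 (SE 0.474), with edgeR adjusted p = 0.149 and 0.150, and without T1 replicate 3 they were -1.18 and -0.54. cox14.S was at -1.46 (SE 0.742) and ndufc2.S, the member closest to its T1 level among the 6 called at T1, at -0.87 (SE 0.693). DESeq2 called cox5a.L, ndufa9.L, uqcrq.S, cox18.L and cox14.S lower at T2. It called 19.2% of its genes in either direction, 1530 lower and 1988 higher.

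Other nuclear-encoded mitochondrial mRNAs of the excerpt were set beside the chain at T1, where 6.44% of all genes were called higher and 5.08% lower. In the group closest to it, with a cytochrome c oxidase assembly factor (coa6.L), a supercomplex factor (higd2a.L), electron transfer flavoprotein genes (etfa.L, etfrf1.L), ubiquinone genes (coq2.L, coq10a.S) and a ferredoxin (fdx1.S), 0 of 7 were called. Their median log2 fold change was 1.35, with the highest value 2.20 (SE 2.00) for etfrf1.L and the lowest -0.08 (SE 0.272) for coq10a.S. Mean input levels ran from 1.65 CPM (higd2a.L) to 12.8 CPM (coq2.L), apart from coq10a.S at 125 CPM. In T1 replicates 1, 2 and 3, coa6.L was at 0, 19.0 and 0 CPM and higd2a.L at 14.3, 0.0285 and 0.0536 CPM. Only in replicate 3 were etfrf1.L (0.0536 CPM), fdx1.S (0.107) and coq2.L (0) near 0, while etfa.L and coq10a.S stayed at 2.62 CPM or more. All 4 ATP synthase genes had log2 fold changes above 0, and 3 were called higher. The catalytic beta subunit atp5f1b.S was at 2.41 (SE 0.307, edgeR adjusted p = 0.0031). The gamma subunit of the rotor, atp5f1c.L, was at 1.87 (SE 0.415), and the membrane ring subunit atp5mc1.S at 2.73 (SE 0.616). The fourth, the inhibitor atp5if1.S, had a value of 3.35 (SE 1.17, edgeR adjusted p = 0.08), and the median of the group was 2.57.

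Of the 7 genes of the TCA cycle and pyruvate oxidation, 6 had log2 fold changes above 0 and 3 were called higher. Citrate synthase cs.S was at 2.18 (SE 0.394), malate dehydrogenase mdh2.S at 2.48 (SE 0.465) and isocitrate dehydrogenase idh2.L at 1.82 (SE 0.408). The group had a median of 0.89, and dld.L, a shared subunit of the 2-oxoacid dehydrogenases, was its lowest at -0.99 (SE 1.02). Of the 16 genes of mitochondrial import, carriers and membranes, 11 had log2 fold changes above 0 and 5 below. In this group 3 genes were called higher and 1 lower, and the median of the group was 1.16. The phosphate carrier slc25a3.L rose by 2.28 (SE 0.296), the calcium uniporter subunit mcub.L by 2.32 (SE 0.456) and the uncoupling protein ucp2.S by 2.15 (SE 0.466) on the log2 scale. The iron carrier slc25a37.L, at 4.59 to 6.55 CPM in the input, was at 0.0536 to 0.0827 CPM in the T1 libraries (edgeR adjusted p = 0.0354) and at 4.29 to 5.84 CPM at T2. These groups were given by their counts, with no test of one group against another.

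**Figure D4:**
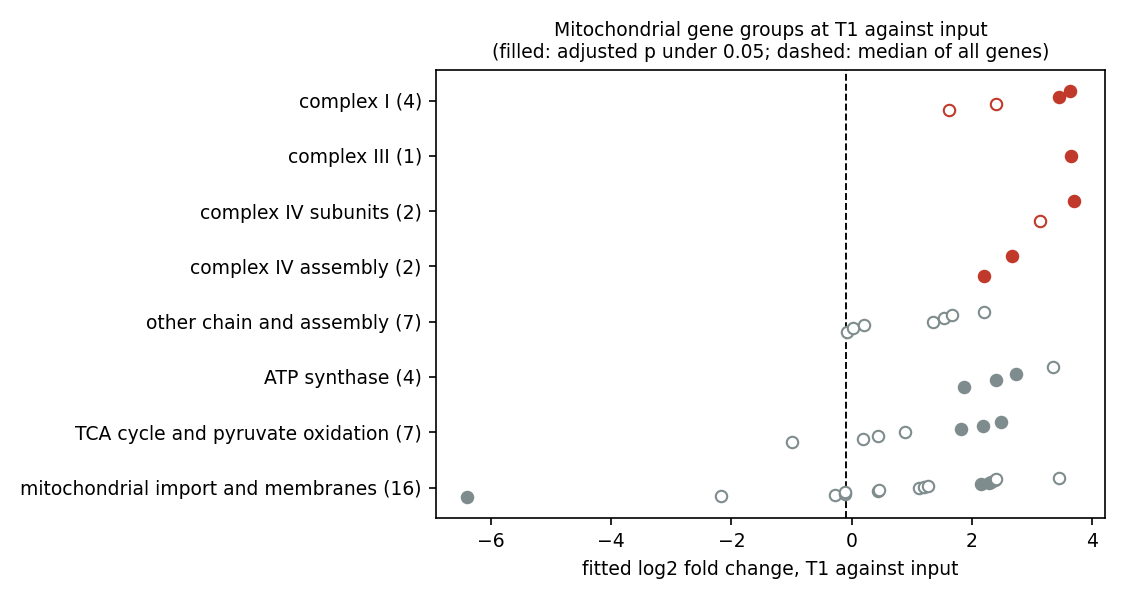
Fitted log2 fold change at T1 against input (horizontal axis) of each gene of the chain (red, by complex) and of other mitochondrial gene groups (grey), with the number of genes in parentheses; filled points have an edgeR adjusted p-value under 0.05, and the dashed line is the median of all genes tested, -0.09. The chain genes lie between 1.63 and 3.71, and the other groups, except the ATP synthase, also hold genes near or below 0. The value of slc25a37.L, the lowest point, depends on the prior count of the fit, since it had at most 3 reads in each T1 library.

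Over the 9 libraries, the named mRNAs whose log level was most like the mean of the chain were rps14.L (r = 0.989), zc3hc1.L (0.985), pcbp3.S (0.980), selenos.L (0.977) and rps3.S (0.973), out of 1881. rps14.L and rps3.S encode proteins of the small ribosomal subunit, pcbp3.S an RNA-binding protein and selenos.L a selenoprotein of the endoplasmic reticulum. For the ribosomal pair the log2 fold changes at T1 were 4.28 and 3.97, above that of any member, and 2.11 and 1.82 at T2. For zc3hc1.L, pcbp3.S and selenos.L they were 2.35, 1.93 and 2.54 at T1, below the members' median of 3.13, and 1.04, 0.80 and 1.07 at T2.

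The genomic span of the members was at the short end of the named mRNAs. It ran from 3021 bases for ndufa2.L to 22297 bases for ndufa9.L, introns included. When the 1874 named mRNAs with a span were divided by it into 4 classes of nearly equal size, 6 of the members fell in the shortest class (up to 12483 bases), 3 in the second and 0 in the others. The median log2 fold change at T1 was 0.61 in the shortest class, 0.13 in the second, -0.36 in the third and -0.69 in the longest, and the share called higher was 12.6%, 7.69%, 2.78% and 1.28%. The division by span was chosen after the data were seen, a span is not a transcript length, and its part in the members' values was not tested.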

How the data were processed

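RNA was extracted with TRIzol, depleted of ribosomal RNA and made into sequencing libraries. The authors trimmed reads with TrimGalore, aligned them with STAR to the v10.1 genome and deposited raw counts per gene; which strand column was used is not given in the sources used here. The deposited normalized counts, a signal scaled by the authors with DESeq2 size factors, were used only to recover whole reads: 100% of values under 1000 reads came within 0.01 of a whole read. Rows that name no gene held 36.2% to 46.1% of the reads and were left out. Counts were fitted with edgeR 4.0.16 in R 4.3.3 (TMM, filter with a minimum count of 10 and a total of 15, quasi-likelihood test on condition over 9 libraries, Benjamini-Hochberg adjustment). Each SE was approximated from the fold change and its F statistic (absolute log2 value over the root of F). The procedure was also run on simulated counts with known changes at T1. Their spread was set alike in all conditions, so that run does not cover the wider spread of the real T1 libraries. Alternatives were RLE or library-size scaling, DESeq2 1.42.0, other filters, fewer conditions, a replicate block, recovered reads and leaving out each library.

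All members of the naming rule are named. From each other list those past the threshold at T1 are named, at most 4, or the highest and lowest where none passed; atp5if1.S and dld.L were added after their values were seen. The members and lists were chosen with earlier results of these data known. The p-values set a difference between conditions against the spread between libraries, and reads are not independent molecules. Symbols came from the excerpt of 10.1% of a source table, and all 9 members matched the RefSeq gene table of the same build.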

Additional observations from a re-analysis of the deposited data

How the results depend on the processing

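The median log2 fold change of the 9 members at T1 against input was 2.63 to 3.69 when single libraries were left out, and 1 to 6 members were called (1 without input replicate 1 or 2, and 3 without input replicate 3). At T2 against input the median was 0.72 to 1.58, the lowest without T2 replicate 2, and 0 members were called, with 1 by DESeq2. At T2 against T1 the median was -2.11 to -1.18, the highest without T1 replicate 3, and 0 to 4 members were called, 4 without T1 replicate 1 and 5 by DESeq2. Over all genes, 2043 of 21668 were called at T2 against T1 without T1 replicate 1. DESeq2 called 3518 of the 18342 to which it gave an adjusted p-value, and the main fit 20 of 20148. With the replicate number as a block, 5 members were called at T1 (median 2.61), and the median at T2 against T1 was -1.17. Same-numbered libraries correlated between -0.04 and 0.39 in their deviations. T1 replicate 1 and T2 replicate 3 correlated better with an input of another number. Between T2 and T1 the same-numbered values were 0.114, 0.110 and 0.0914, and the others were negative. The study describes 3 biologically independent samples, so libraries of the same number may share an extract. The labels do not state it, and the main fit did not use the numbers as pairs. Direction was reversed only in the 3 members near 0 reads in some filtrates. For cox5b.1.L it became -0.22 at T2 against input with the block, and at T2 against T1 it ran from -2.74 to 1.64 without single libraries, the highest without T1 replicate 1. For ndufa2.L it became -2.61 at T1 with the block, and without single libraries it ran from -5.73 to 2.21 at T1 and from -4.002 to 5.09 at T2 against T1, turned by leaving out T1 replicate 1. For ndufa5.L it became -1.41 at T1 and 0.63 at T2 against T1 with the block, and without single libraries it ran from -7.53 to 3.05 and from -5.96 to 6.90, turned by leaving out T1 replicate 3. The causes were not tested. Of the other comparisons of a single member with an alternative, 418 kept direction and call, 22 lost the call and 10 gained one.

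The count of all genes called at T1 was 2320, and it was 5630 by DESeq2, 4013 with only the compared conditions, 1499 with the block, and 417 to 4083 without single libraries. Without input replicates 1, 2 and 3 it was 420, 417 and 590. At T2 against input it was 0, with 251 by DESeq2, 192 with only the compared conditions, 8 with no filter, 1 with the block and 0 to 34 without single libraries. At T2 against T1 it was 20, with 3518 by DESeq2, 91 by library size only, 80 with no filter, 3 by RLE, 0 with only the compared conditions or the block, and 0 to 2043 without single libraries. The median of all genes at T1, -0.09, was -0.25 by library size only, -0.51 with no filter, -0.72 with the block, 0.07 with a mean of at least 1 CPM, 0.03 with only the compared conditions, and -0.55 to -0.14 without single libraries (-0.55 and -0.53 without T1 replicates 1 and 2). The order of the members per kilobase was not run, since no transcript lengths were used here. With 3 reads as the floor, the 3 members near 0 at T1 could not be told from absent in those libraries.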
